A study of Homo sapiens with 6 samples.

Results

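KIF11, KIF15, KIF20A and KIFC1 encode 4 motor proteins of the mitotic spindle. Their transcripts were measured by RNA sequencing in the established human lung cancer line NCI-H292. Cells had received mitoxantrone at 50 nM or its solvent DMSO, diluted 1 in 1000, for 48 hours. Mitoxantrone is an anticancer drug that holds topoisomerase II on cut DNA. Each treatment had 3 libraries, all from the same line, with no genotype or other agent named in the labels. The 4 genes were chosen by symbol from the authors' deposited table of changed genes, where all 4 were found, and make up 4 of its 1305 genes.

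Kinesins are motors that use ATP to walk along microtubules or to take them apart, and several of them build the bipolar spindle that separates chromosomes. KIF11 (Eg5) cross-links antiparallel microtubules and slides them apart, which pushes the spindle poles away from each other, and KIF15 works in the same direction to keep the spindle bipolar. KIFC1 (HSET) walks towards the minus end, draws microtubules together at the poles and opposes KIF11, while KIF20A (MKLP2) acts later, at the central spindle, where it brings Aurora B kinase for cytokinesis. In dividing cells the transcripts of such genes are known to peak in G2 and mitosis, through promoter elements named CHR (cell cycle genes homology region) and CCAAT box, and the p53 to p21 route is known to repress them.

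The stretch before the start of each gene is shown because such elements are known to lie close to the start. Each line is the 250 bases before the RefSeq transcription start in GRCh38.p14, 5′ to 3′ on the plus strand, on which all 4 genes lie. The windows are chr10:92592880-92593129 for KIF11, chr3:44761544-44761793 for KIF15, chr5:138178862-138179111 for KIF20A and chr6:33391573-33391822 for KIFC1. Capitals mark TTCAAA (the CHR letters TTTGAA on the other strand), ATTGG (the box CCAAT on the other strand) and GCGCCAAA (the E2F letters TTTGGCGC on the other strand). In KIF15 the E2F and CHR letters share no base but adjoin.
KIF11: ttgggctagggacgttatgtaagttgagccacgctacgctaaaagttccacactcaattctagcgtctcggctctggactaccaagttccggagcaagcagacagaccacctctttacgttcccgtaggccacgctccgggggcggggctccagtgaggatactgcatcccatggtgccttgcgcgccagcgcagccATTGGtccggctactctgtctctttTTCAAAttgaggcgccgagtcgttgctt
KIF15: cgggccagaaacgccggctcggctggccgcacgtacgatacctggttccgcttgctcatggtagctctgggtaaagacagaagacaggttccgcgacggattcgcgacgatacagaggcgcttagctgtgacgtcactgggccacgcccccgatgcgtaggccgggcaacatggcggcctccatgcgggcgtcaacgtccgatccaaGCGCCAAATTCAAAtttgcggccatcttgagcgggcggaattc
KIF20A: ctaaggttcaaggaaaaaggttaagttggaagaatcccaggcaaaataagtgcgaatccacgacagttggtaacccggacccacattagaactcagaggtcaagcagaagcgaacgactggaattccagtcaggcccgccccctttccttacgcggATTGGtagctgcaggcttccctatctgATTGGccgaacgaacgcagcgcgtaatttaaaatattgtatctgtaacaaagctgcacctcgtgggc
KIFC1: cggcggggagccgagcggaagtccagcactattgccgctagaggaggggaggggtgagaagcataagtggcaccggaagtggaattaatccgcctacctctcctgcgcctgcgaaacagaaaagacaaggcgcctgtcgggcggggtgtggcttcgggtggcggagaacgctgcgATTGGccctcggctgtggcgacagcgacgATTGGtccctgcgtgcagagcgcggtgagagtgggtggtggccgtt

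Motifs were searched on both strands of the full RefSeq window, 250 bases before to 50 after the start, for TTTGAA and its variant TTCGAA, for the box CCAAT, and for the E2F letters TTTGGCGC or TTTCGCGC and the shorter GCGGGAA. KIF11 held CCAAT 53 to 49 bases and TTTGAA 28 to 23 bases before its start. KIF15 held TTTGGCGC 43 to 36 bases and TTTGAA 35 to 30 bases before its start, and no CCAAT. KIFC1 held CCAAT at 75 to 71 and at 46 to 42 bases before the start, and its TTTGAA lay 5 to 10 bases after the start, outside the printed stretch. KIF20A held CCAAT at 94 to 90 and at 67 to 63 bases before the start, and TTTGAA was not among the letters of its window. Thus 3 of the 4 windows held TTTGAA, against 15.4% of the first windows of 27305 genes, and 3 of 4 held CCAAT, against 35.7%. TTTGGCGC was in 1 of 4, against 0.659%. The letters TTCGAA were in 0 of 4 (1.45% of all), as were TTTCGCGC (0.546%) and GCGGGAA (6.56%). Among 19 other listed mitosis genes with a window, 11 held TTTGAA and 14 held CCAAT. These include 3 mitotic kinesins, of which 1 held TTTGAA, 2 held CCAAT and 1 (KIF22) held TTCGAA. Over the 312 genes listed as lower with a window, 18.9% held TTTGAA and 44.2% held CCAAT. A match of letters is a description and not a binding site.

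The deposited table was already a selection on this contrast. It held 793 higher and 512 lower genes, and in the authors' deposited table no absolute log2 fold change was under 1.0. The folds and tests of the 4 genes therefore restate that selection and support nothing beyond it. Library totals ranged from 14762592 to 17817830 reads, and 4 members together received 5134 to 7329 reads with DMSO and 2034 to 2268 with mitoxantrone. The labels do not name separate cultures, and the p-values thus reflect the spread between these samples alone, which may be technical. Among genes fixed as cell type markers, the table held 2 of 8 epithelial ones (KRT8 and KRT18, both higher), 1 of 5 of fibroblasts (COL1A1, lower), 1 of 3 of endothelium (CDH5, lower) and 0 of 5 of leukocytes. Markers outside the table were not analysed here, so the labelled cell type could not be checked against most of them. DMSO replicate 2 stood apart from the other DMSO libraries, with fewer reads in long genes.

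All 4 spindle motors were lower with mitoxantrone, at 33.1% to 41.6% of their DMSO level. Tested with edgeR (quasi-likelihood, Benjamini-Hochberg adjustment), 4 of the 4 members passed an adjusted p of 0.05 as lower, where 35.3% of the 1305 listed genes did and 56.7% passed as higher. The libraries of the 2 treatments did not overlap for any of the 4, as for 38.5% of listed genes in the lower direction and 60.1% in the higher one. Their median log2 fold change was -1.39, beside 1.26 for all listed genes and -1.51 for the 512 listed as lower. Since all listed genes had been chosen as changed, nothing is read from these shares. In bulk RNA, fewer cells in G2 and mitosis and less of each RNA per cell cannot be told apart.

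KIF11, the motor that pushes the poles apart, had 2383, 1731 and 2018 normalized reads in DMSO replicates 1, 2 and 3, and 805, 886 and 863 in mitoxantrone replicates 1, 2 and 3. Normalized reads are counts divided by the library's size factor. The lowest DMSO library, replicate 2, was still 1.95 times the highest mitoxantrone library. Means were 2044 ± 327 (SD, n = 3) and 851 ± 41.5 (SD, n = 3), a 2.4-fold fall with a log2 fold change of -1.26, a standard error of 0.14 and adjusted p = 1.4e-05 (edgeR quasi-likelihood test). The DMSO libraries varied by 16% (SD over mean), where counting error alone gives 2.11%, while the mitoxantrone libraries varied by 4.88% against 3.56%.

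KIF15, which helps to hold the poles apart, was the scarcest of the 4 per length and had the largest fall with all 6 libraries. Without DMSO replicate 1 its log2 fold change was -1.42 and that of KIF20A -1.46. It had 755, 504 and 580 normalized reads with DMSO and 227, 187 and 195 with mitoxantrone. DMSO replicate 1 was the highest library and replicate 2 the lowest of the DMSO group, and no DMSO library came near the mitoxantrone ones (lowest over highest 2.22). Means fell from 613 ± 129 (SD, n = 3) to 203 ± 21.4 (SD, n = 3), a 3.02-fold fall with a log2 fold change of -1.60 and a standard error of 0.17 (adjusted p = 6.0e-06, edgeR quasi-likelihood test). Its DMSO spread of 21% exceeded the 3.85% of counting error.

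KIFC1, the minus-end motor, was the most even of the 4 with DMSO. It had 1482, 1549 and 1609 normalized reads with DMSO and 643, 647 and 554 with mitoxantrone, where replicate 3 was the lowest. Means were 1547 ± 63.4 (SD, n = 3) and 615 ± 52.8 (SD, n = 3), a 2.52-fold fall with a log2 fold change of -1.33 and a standard error of 0.13 (adjusted p = 3.4e-06, edgeR quasi-likelihood test). The DMSO spread was 4.1% against 2.42% of counting error, and the mitoxantrone spread was 8.59% against 4.19%. In GENCODE v29, 424 of the 3345 exon bases of KIFC1 (12.7%) overlap RPL12P1, a processed pseudogene on the other strand derived from a ribosomal protein gene. The labels do not say that strand was kept, so KIFC1 counts may have gained or lost reads over these bases, and the effect was not tested.

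KIF20A, the motor of the central spindle, had 1677, 1506 and 1923 normalized reads with DMSO and 624, 644 and 609 with mitoxantrone. DMSO replicate 3 was the highest library, and the mitoxantrone libraries lay closer together than counting error gives (2.83% against 4.16%). Means were 1702 ± 209 (SD, n = 3) and 626 ± 17.7 (SD, n = 3), a 2.72-fold fall with a log2 fold change of -1.44, a standard error of 0.14 and adjusted p = 2.2e-06 (edgeR quasi-likelihood test). Its exons share 132 bases (3.34%) with BRD8 and 68 bases (1.72%) with CDC23, both on the other strand in GENCODE v29. Exons of KIF11 and KIF15 share 0 bases with other genes there.

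**Figure D1:**
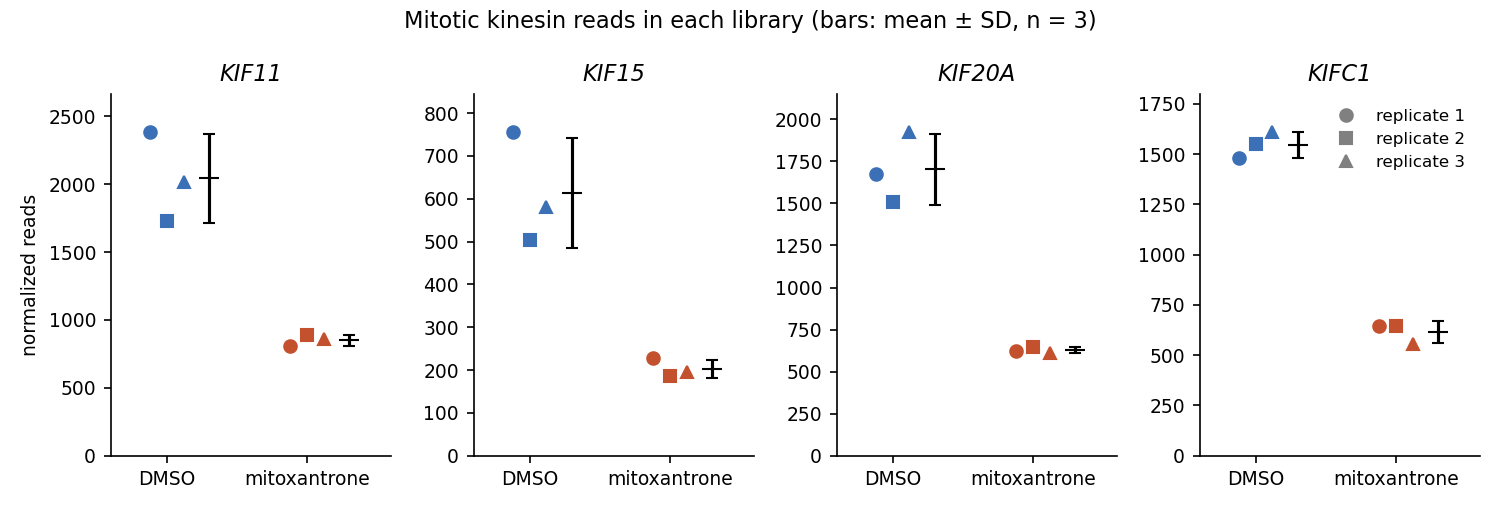
Normalized reads (vertical axes, from 0) of KIF11, KIF15, KIF20A and KIFC1 in the 3 DMSO and 3 mitoxantrone libraries, with a marker shape for each replicate and bars for mean ± SD. In each panel all mitoxantrone points lie below all DMSO points, and relative to their mean the DMSO points are widest apart for KIF15 (21%) and closest for KIFC1 (4.1%).

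In the deposited table KIF11 lies on chromosome 10 from 94353043 to 94415150, KIF15 on chromosome 3 from 44803209 to 44914868, KIF20A on chromosome 5 from 137514408 to 137523404 and KIFC1 on chromosome 6 from 33359313 to 33377701, all on the plus strand. The genome build of these coordinates is not given in the sources used here, and they differ from the RefSeq windows printed above. The counts are over whole genes, so no exon or isoform is told apart. The authors' deposited table gave log2 fold changes of -1.23 for KIF11, -1.31 for KIFC1, -1.41 for KIF20A and -1.53 for KIF15, the same order as in the edgeR fit.

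Whether the 4 motors fell by different amounts was asked with ratios inside each library, which do not depend on size factors. For KIF15 over KIF11, the log2 ratios of normalized reads were -1.66, -1.78 and -1.80 with DMSO and -1.82, -2.24 and -2.14 with mitoxantrone. The ratio was thus lower in every mitoxantrone library than in any DMSO library, by a narrow margin for mitoxantrone replicate 1. The difference of the means was -0.32 with a standard error of 0.13, with p = 0.1 in a two-sided exact permutation test and 0.6 after Benjamini-Hochberg adjustment over 6 pairs. That p of 0.1 is the smallest that 3 against 3 libraries allow.

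The other 5 ratios overlapped between treatments. KIF15 over KIFC1 differed by -0.24 (standard error 0.22) and KIF15 over KIF20A by -0.14 (standard error 0.20), with exact permutation p-values of 0.4 and 0.6. KIF20A over KIF11 differed by -0.18 (standard error 0.14) and KIF20A over KIFC1 by -0.10 (standard error 0.10), with exact permutation p-values of 0.4 and 0.3. KIFC1 over KIF11, the opposed pair of motors, differed by -0.08 with a standard error of 0.18 (exact permutation p = 0.8). Leaving out DMSO replicate 1 turned KIF15 over KIF20A to 0.03. Leaving out DMSO replicate 2 turned KIFC1 over KIF11 to 0.03, and leaving out mitoxantrone replicate 3 turned it to 0.0027. Differences of the size of these standard errors could not be resolved with 3 libraries a group.

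Levels of different genes were compared per length, as FPKM (fragments scaled by gene length and library size). With DMSO the order was KIFC1 at 29.8 ± 1.57 (SD, n = 3), KIF20A at 27.7 ± 4.22 (SD, n = 3), KIF11 at 27.2 ± 5.27 (SD, n = 3) and KIF15 at 7.5 ± 1.81 (SD, n = 3). The first 3 lay within their spread, since KIF11 ranged from 21.9 to 32.44 and KIF20A from 23.39 to 31.82, around the 28.46 to 31.51 of KIFC1. KIF15 stood apart, at 5.86 to 9.45, and amounted to 25.2% ± 6.18 (SD, n = 3) of KIFC1 within a library. With mitoxantrone KIFC1 stood at 11.3 ± 0.76 (SD, n = 3), KIF11 at 10.8 ± 0.713 (SD, n = 3), KIF20A at 9.69 ± 0.262 (SD, n = 3) and KIF15 at 2.35 ± 0.212 (SD, n = 3). KIF11 and KIFC1 overlapped there (9.93 to 11.17 and 10.4 to 11.85), as did KIF20A (9.45 to 9.97) and KIF11. KIF20A lay below every KIFC1 value. KIF15 was then 21% ± 2.38 (SD, n = 3) of KIFC1, within the spread of its share with DMSO. The summed FPKM of the 4 was 99.2, 79.6 and 97.7 with DMSO and 33.5, 35.1 and 33.5 with mitoxantrone, so DMSO replicate 2 was the lowest of its group for the sum.

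Of 44 genes of the kinesin family 9 were in the table, of which 8 passed as lower and 1 as higher. Of all 1305 listed genes 35.3% passed as lower and 56.7% as higher. Of the 512 listed as lower 461 passed, so nothing is read from this or later counts of listed genes. Of 16 kinesins known to act in mitosis 7 were listed, all 7 lower, with log2 fold changes from -1.60 to -1.06 and a median of -1.26. The 4 members had the largest falls of these with all 6 libraries, and the choice of the 4 may reflect that. Without DMSO replicate 1 KIF22 stood at -1.27 and KIF11 at -1.14, and without mitoxantrone replicate 1 KIF22 stood at -1.25 and KIF11 at -1.23, so that order is not settled. KIF2A, KIF2B, KIF2C, KIF4A, KIF4B, KIF14, KIF18A, KIF20B and KIF23 were outside the table and were not analysed here. KIF22 (Kid), which binds chromosome arms, had a higher mean level than any member. It went from 32.5 ± 1.97 FPKM under DMSO to 13.3 ± 0.559 under mitoxantrone (SD, n = 3 each), a 2.32-fold fall in the fit (adjusted p = 9.9e-06, edgeR quasi-likelihood test).

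KIF18B, which acts on the plus ends of microtubules, had 938, 742 and 990 normalized reads with DMSO and 318, 445 and 449 with mitoxantrone, a 2.2-fold fall. CENPE, the kinetochore motor that helps chromosomes to line up, had 1486, 829 and 1130 with DMSO and 538, 573 and 538 with mitoxantrone. Its groups did not overlap, with DMSO replicate 2 the lowest of its group, and its log2 fold change of -1.06 had a standard error of 0.18. CENPE and KIF26A lay just inside the authors' fold threshold, at -1.02 and -1.04 in the authors' deposited table.

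KIF26A and KIF26B are atypical kinesins with no known motor activity, outside mitosis, and they moved in opposite directions. KIF26A had 182, 173 and 211 normalized reads with DMSO and 92.7, 81.3 and 92.3 with mitoxantrone, a log2 fold change of -1.09. KIF26B had 4, 7 and 7 reads as counted with DMSO and 23, 16 and 18 with mitoxantrone. Its log2 fold change of 1.89 had a standard error of 0.44 (adjusted p = 0.011, edgeR quasi-likelihood test). The KIF26B call ended with TMM or DESeq2 scaling over the listed genes, with limma on FPKM, and without DMSO replicate 1 or mitoxantrone replicate 1 (adjusted p 0.072 and 0.066, edgeR quasi-likelihood test).

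**Figure D2:**
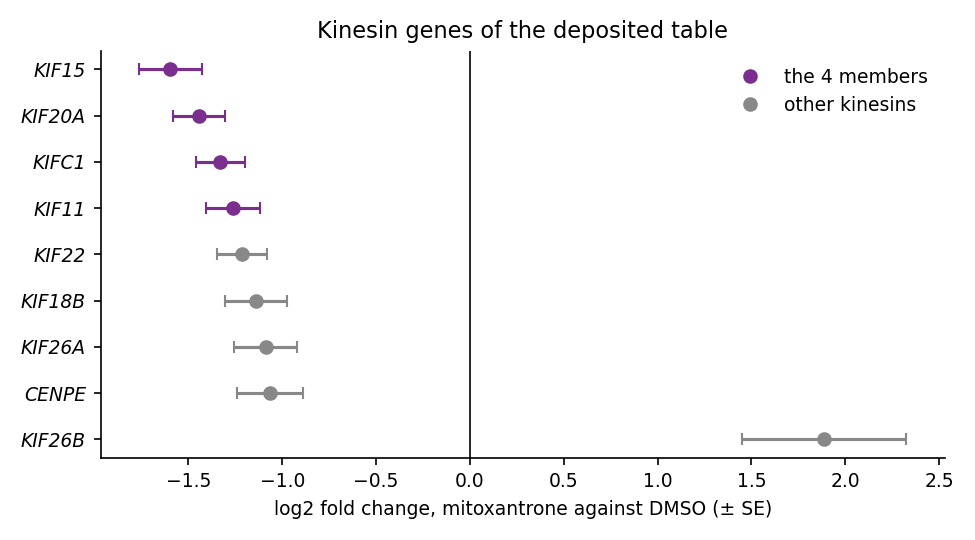
Log2 fold change of mitoxantrone against DMSO (horizontal axis, bars for standard errors, n = 3 libraries a group) for the 9 kinesin genes of the table, with the 4 members in purple and the others in grey. KIF15 is farthest left at -1.60, CENPE is nearest to 0 among the falls at -1.06, and KIF26B is the 1 gene to the right, at 1.89.

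Some of the genes that work with these motors were in the table, and most were outside it and not analysed here. Of 34 spindle assembly genes 8 were listed and 8 passed as lower, where 35.3% of all listed genes did, in a table already selected for change, with a median log2 fold change of -1.17. The largest falls were DLGAP5, a microtubule-binding protein of the spindle (1568 ± 92.8 to 593 ± 58, SD, n = 3 each), STMN1 (stathmin), which destabilises microtubules (3675 ± 692 to 1536 ± 258, SD, n = 3 each), and HAUS8, a subunit of the augmin complex (279 ± 10.9 to 119 ± 12.7, SD, n = 3 each). Aurora A and TPX2, which act with KIF11 on the spindle, were outside the table and were not analysed here.

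Of 20 genes of the central spindle, cytokinesis and its control 4 were listed and 4 passed as lower, with a median of -1.15. Of all listed genes 35.3% passed as lower. AURKB, the Aurora B kinase that KIF20A carries, was the nearest functional partner of a member in the table, with a log2 fold change of -1.05 (adjusted p = 1.1e-04, edgeR quasi-likelihood test). It was named for that role after its value was seen. PLK4, the kinase that starts centriole duplication, fell 2.54-fold, and ESPL1 (separase), which cuts cohesin at anaphase, fell 2.12-fold.

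Of 22 genes of mitotic entry and exit 5 were listed and 5 passed as lower (35.3% of all listed genes), with a median of -1.20. CDC25C, the phosphatase that activates CDK1, had the largest fall, from 361 ± 38.8 to 107 ± 18.2 normalized reads (SD, n = 3 each). CCNB2 (cyclin B2) fell 2.32-fold and WEE1, the kinase that holds CDK1 inactive, 2.3-fold, so both an inhibitor and activators of mitotic entry were lower.

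Of 25 genes fixed as direct or indirect regulators of cell cycle promoters 6 were listed. Of these 5 passed as lower (35.3% of all listed genes) and 1 as higher (56.7%). E2F2 and E2F8 fell 4.41-fold and 3.64-fold, further than any of the 4 kinesins. FOXM1, MYBL2 and E2F1 of the same list were also in the table as lower genes. CDKN1A, which encodes p21, was the 1 that rose, from 3200 ± 329 to 18794 ± 506 normalized reads (SD, n = 3 each). LIN9, LIN37, LIN52, LIN54, E2F4 and the NF-Y subunits, which bind the CHR and CCAAT elements or form part of the complexes there, were outside the table and were not analysed here.

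The listed genes most like the 4 kinesins across the 6 libraries were sought by the root mean square difference from the mean profile of the members, on log2(normalized reads + 0.5) centred for each gene. The closest were PLK4 (0.0852), ANP32E, a histone chaperone of H2A.Z (0.0961), CBX2, a Polycomb subunit (0.0996), UHRF1, which maintains DNA methylation (0.101), and MCM5, a subunit of the replicative helicase (0.103). The median distance was 1.36 over the other listed genes and 0.322 over the others listed as lower. The members themselves lay at 0.0837 for KIF20A, 0.111 for KIF11, 0.116 for KIFC1 and 0.154 for KIF15. KIF11, KIFC1 and KIF15 were farther from the mean of the members than these 5 genes were. The 5 were picked as the nearest of the other listed genes, so that order follows in part from the choice. The profiles rest on 6 libraries in 2 groups, and the parts of the fall and of the spread within groups in this distance were not separated.

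**Figure D3:**
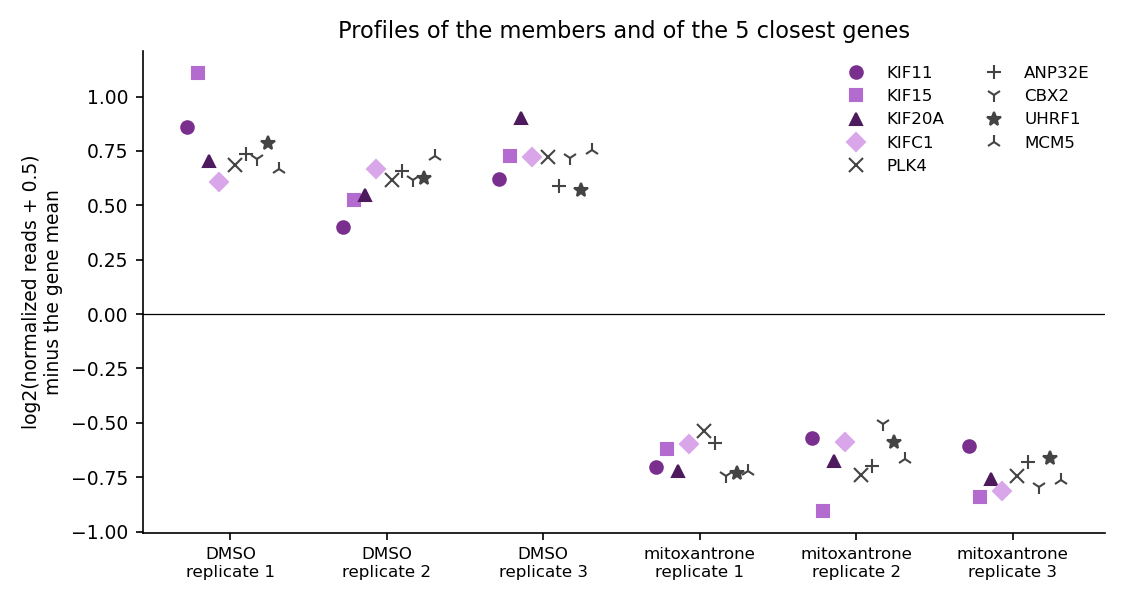
Log2(normalized reads + 0.5) minus the mean of each gene (vertical axis) in each of the 6 libraries, with coloured markers for the 4 members and dark crosses, line markers and stars for PLK4, ANP32E, CBX2, UHRF1 and MCM5. In DMSO replicate 2 KIF11 is the lowest of the DMSO points at 0.399, and in DMSO replicate 1 KIF15 is the highest at 1.11, while the 5 closest genes stay between 0.572 and 0.786 over the DMSO libraries.

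DMSO replicate 2 held fewer reads in longer genes than the other DMSO libraries. Over 282 genes listed as lower with a mean of at least 50 normalized reads, the deviation of DMSO replicate 2 from its group mean had a Spearman correlation of -0.59 with gene length, across genes of 1 library, which are not independent. The same measure was 0.44 and 0.30 for DMSO replicates 1 and 3, and -0.34, 0.14 and 0.29 for mitoxantrone replicates 1, 2 and 3. Over 425 genes listed as higher it was -0.49 for DMSO replicate 2 and -0.48 for mitoxantrone replicate 1, and above 0 in each other library. Deviations from a group mean sum to 0 for each gene, so the signs within a group are tied. DMSO replicate 2 over the mean of the other DMSO libraries was 1.0 for KIFC1 (3345 bases), 0.837 for KIF20A (3958 bases), 0.787 for KIF11 (4858 bases) and 0.755 for KIF15 (5285 bases). The 4 members thus ranked by length, with the longest the lowest in that library, while the other kinesins did not all follow that order. CENPE (9444 bases) stood at 0.634 and KIF18B (4658 bases) at 0.77, while KIF22 (4312 bases) stood at 1.18, KIF26A (6756 bases) at 0.881 and the scarce KIF26B (14403 bases) at 1.53. The part of length in these results was not tested.

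Without DMSO replicate 2 the log2 fold changes were -1.37 for KIF11, -1.72 for KIF15, -1.52 for KIF20A and -1.33 for KIFC1, against -1.26, -1.60, -1.44 and -1.33 with it. Without DMSO replicate 2 and mitoxantrone replicate 1 together they were -1.33, -1.81, -1.52 and -1.36, and 4 of 4 passed as lower. There 407 of the 1305 listed genes passed as lower, in a table already selected for change, so nothing is read from that count. This last setting was added after seeing the data.

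**Figure D4:**
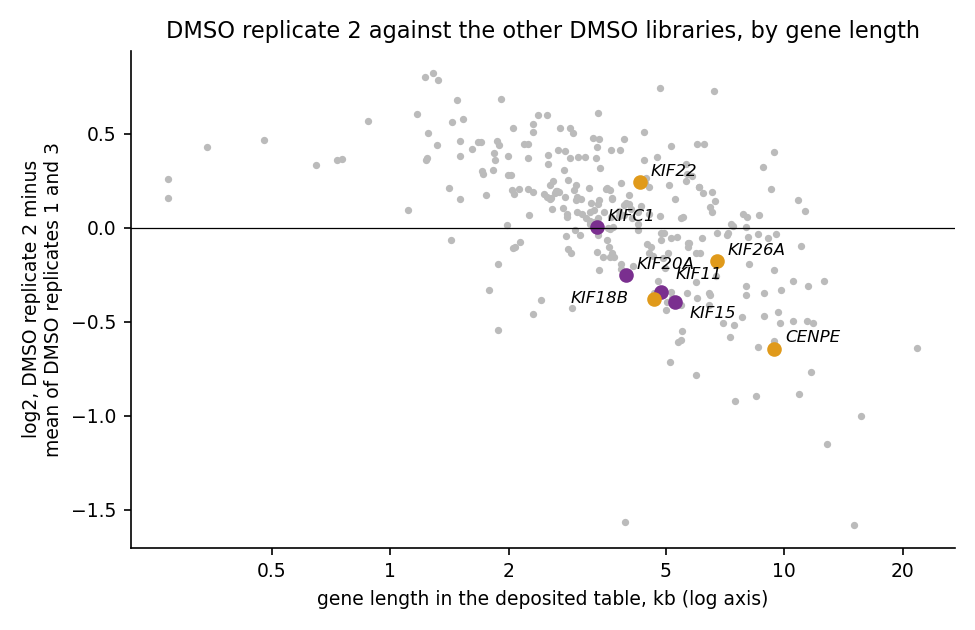
Log2 difference between DMSO replicate 2 and the mean of DMSO replicates 1 and 3 (vertical axis) against gene length in kb (horizontal log axis) for the 282 listed lower genes, in grey, with the 4 members in purple and other kinesins in orange. KIFC1 lies at 0.0040, KIF20A at -0.25, KIF11 at -0.34 and KIF15 at -0.39, in order of length, and CENPE lies at -0.64.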

How the data were processed

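RNA of 3 DMSO and 3 mitoxantrone samples was sequenced from both ends (150 bases each), per the labels' protocols. Tools named in the submitters' processing notes, with no role, are HISAT2 (2.0.1), DESeq2, Cufflinks (2.2.1), cutadapt (1.9.1) and HTSeq (0.6.1), and the build is not given in the sources used here. Per the file headers, the authors deposited raw read counts and FPKM values per gene and library, the mean normalized count (a signal value), and their log2 fold change, its standard error, Wald score, p-value and adjusted p-value. Size factors were solved from counts and mean normalized counts (largest relative error 1.5e-09), and library totals from FPKM, counts and length. The number of genes the authors tested was estimated as 18313, which brought ranks in the ratio of p to adjusted p closest to whole numbers. Those ranks still lay 0.0905 from whole numbers on average. Columns of samples left unused numbered 0.

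All 1305 listed genes were fitted with the edgeR 4.0.16 quasi-likelihood test (limma 3.58.1, R 4.3.3) on treatment alone, with those size factors and no filter on low counts. Benjamini-Hochberg adjustment used 18313 tests with ranks among the listed genes, which enlarges adjusted p-values. Dispersions estimated on genes selected as changed tend to be too low. Ratios of members used a pseudocount of 0.5 and exact permutation tests (scipy 1.17.1). Alternatives were other scalings, DESeq2 1.42.0, limma on FPKM, a filter of 10 reads in 3 libraries, adjustment over listed genes, a replicate block, and leaving out each library.

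Members and lists were chosen with earlier results of these data known. The rule named the members, every other listed kinesin, the 3 largest changes past the threshold in each other list, and the 5 genes closest in profile; 1 gene it named is not reported here. Promoters are from RefSeq (GRCh38.p14; 4 of 4 members, 19 of 20 other listed mitosis genes matched; first window of each gene), and exon overlaps from GENCODE v29. Libraries of the same treatment differed beyond counting error (chi-square per gene from 3.24 to 31.5).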

Additional observations from a re-analysis of the deposited data

How the results depend on the processing

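All 4 members passed as lower, with the direction kept, in each of the 16 alternatives run. Over these alternatives 395 to 512 of the 1305 listed genes passed as lower. Since the table was already selected for change, nothing is read from the count of members. Scaling by TMM or by DESeq2 on the listed genes alone treats a selected set as mostly unchanged. It moved the median log2 fold change of all listed genes by -0.69 and -0.99, and gave -1.95 and -2.25 for KIF11. With them, genes called higher numbered 366 and 219 in place of 740, and kinesins called higher 0 in place of 1. Kinesins called higher were also 0 with limma on log2(FPKM + 0.1) or log2(FPKM + 1) and without DMSO replicate 2 and mitoxantrone replicate 1 together, and 0 to 1 when single libraries were left out (0 without DMSO replicate 1 or mitoxantrone replicate 1). The 1 gene behind this is KIF26B, whose 7 lost calls are the only ones among 336 values of the 21 other named genes, and the cause was not tested. Leaving out single libraries gave -1.37 to -1.14 for KIF11, -1.72 to -1.42 for KIF15, -1.52 to -1.35 for KIF20A and -1.37 to -1.26 for KIFC1. The response of KIF15 over KIF20A ranged from -0.26 to 0.0278 and that of KIFC1 over KIF11 from -0.23 to 0.0338, so these directions are not settled, and the cause was not tested.

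With the replicate number as a block, log2 fold changes were -1.25 for KIF11, -1.58 for KIF15, -1.44 for KIF20A and -1.33 for KIFC1, and genes called lower numbered 463 in place of 461. Deviations of same-numbered samples correlated at -0.44, -0.26 and 0.23, and those of differently numbered samples at -0.47 to 0.59. No pairing by number was visible, but deviations from means of 3 libraries cannot exclude it. The lowest member count in a library was 179 reads (KIF15).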
